A study of Mus musculus with 36 samples.

Results

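Cytosolic ribosomal protein genes were taken from an RNA-seq table of mouse CD4+ T cells by their names, that is Rpl or Rps followed by a number and optional letters, or Rplp0 to Rplp2, with names of numbered pseudogenes left out. The rule found 88 of the 56748 genes in the table, of which 35 carry names of the small (40S) subunit (Rps) and 53 names of the large (60S) subunit (Rpl). In the GENCODE annotation of GRCm39 they lie on 19 chromosomes, with 15 on chromosome 7. The annotation gives 83 of them as protein coding and 5 as processed pseudogenes (Rpl32l, Rpl6l, Rps12l1, Rps3a2 and Rps3a3). The name rule does not take Rpsa, a small subunit protein, nor Rack1, Fau and Rpl36al, which are described apart.

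The cells came from spleens and belonged to 2 mouse lines on a mixed 129/Sv and C57BL/6 background. In the HP1a line the floxed Hp1a gene (Cbx5) had been deleted in the germ line by CMV-cre, and cells of Hp1a-/- mice (HP1a KO) were set against those of Hp1a+/+ littermates (HP1a WT). In the HP1g line the floxed Hp1g gene (Cbx3) was deleted in T cells by Cd4-cre (HP1g KO), and controls carried the floxed alleles without cre (HP1g WT). Mice were young adult littermates matched for sex. Naive libraries were made from naive CD4+ T cells taken directly from these mice. Tconv libraries were made from Vβ6+ CD4+ donor T cells sorted from spleens of lethally irradiated hosts, weeks after they had been transferred together with syngeneic and semi-allogeneic bone marrow depleted of T and NK cells. For TconvTreg libraries the hosts had also been given expanded regulatory T cells (Treg), which carried a Thy1 marker that the sort excluded. Each of the 12 groups held 3 libraries. Replicate 3 of HP1g KO TconvTreg was left out for its quality. Naive libraries were numbered in series of their own, so that library set and cell state cannot be told apart.

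A ribosome holds 1 copy of nearly every one of these proteins, and cells make them in matched amounts. Their mRNAs belong to the class that starts with a tract of pyrimidines at the cap (TOP mRNAs), through which mTORC1 and LARP1 set their stability and translation. Naive T cells are known for a low rate of protein synthesis that climbs steeply after stimulation, together with the making of new ribosomes. A few members have paralogs with narrower expression, such as Rpl3l in muscle and Rpl10l in testis.

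The tract can be read around the annotated starts of the genes. RefSeq promoter windows (GRCm38.p6) were found for 63 of the 88 genes, 75 windows in all. A run of at least 8 bases that are each C or T, within 25 bases of the start on the transcribed strand, was present in 35 of the 75 windows (46.7%). Among all 32851 promoter windows 19.7% held such a run. On the other strand the shares were 8% and 21.6%. The following stretches of 30 bases, read 5′ to 3′ on the transcribed strand with the longest run in capitals where it reaches 8 bases, belong to members described below. They show genes that fell in the comparisons of Tconv with naive cells (Rps27, Rps28, Rps6, Rplp2), a gene with smaller changes (Rpl38), and paralogs (Rps27l, Rpl22l1, Rpl7l1).
Rps27, chr3:90213627-90213656, minus strand: ctttcgCTCCTTTCCggcggtgacgacctc
Rps28, chr17:33824560-33824589, minus strand: cgaggattcctgggtaccgcgtgcggtctc
Rps6, chr4:86857345-86857374, minus strand: gtcgggCCTCTTTTTCgtgacgcctcccag
Rplp2, chr7:141447640-141447669, plus strand: tcagcgTCTTCCTTTCgccgccggacgccg
Rpl38, chr11:114668572-114668601, plus strand: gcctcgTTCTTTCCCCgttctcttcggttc
Rps27l, chr9:66946058-66946087, plus strand: cctccaCTCCTCTCCactcctccccgccgc
Rpl22l1, chr3:28805503-28805532, plus strand: agcccgTTCTCTTCCCacggctgcagctca
Rpl7l1, chr17:46782657-46782686, minus strand: tctctaccccgcccggtgaggctgcgcaag
Runs of this kind stood in some genes that fell and in 1 of the 2 windows of Rps27l, which rose, where the run begins 22 bases before the annotated start. The windows of Rps28, which fell, and Rpl7l1, which passed no test, held none. Other members named below also fell in all 4 comparisons. Among these, Rpl5, Rpl11, Rpl13, Rpl31 and Rpl39 held a run. No window of Rpl12, Rpl22, Rpl36a, Rpl41, Rplp0, Rps3, Rps3a1, Rps4x or Rps19 held one. A match of letters does not show that transcripts start there.

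Library totals ranged from 37029519 to 63042245 estimated counts in the 35 libraries used, and 85 to 87 of the 88 genes had a count in each. Values are CPM, that is counts relative to library size with TMM scaling factors, unless said otherwise. The deleted genes were lower in the KO libraries of their line, with Cbx5 at 9.25 to 19.7 CPM in HP1a KO and 18.6 to 61.9 CPM in HP1a WT, and Cbx3 at 59.4 to 80.8 CPM in HP1g KO and 79.5 to 200.2 CPM in HP1g WT. All 8 CD4 T cell markers were above 1 CPM in every group. The 7 naive T cell markers summed to between 7883 and 10005 CPM in naive libraries and to between 1498 and 3333 CPM in the transferred cells. Markers of other cells were present, with 1 B cell marker at 0 in HP1g WT Tconv and 1 erythroid marker at 0 in HP1a WT TconvTreg. The 6 erythroid markers summed to between 9.88 and 179 CPM in naive, 1.80 and 4964 CPM in Tconv and 2.66 and 6104 CPM in TconvTreg libraries. The 9 myeloid markers summed to between 42.6 and 101.7, 85.5 and 371.6, and 108 and 610 CPM, and the 9 B cell markers to between 5.95 and 11.8, 4.47 and 21.3, and 5.99 and 65.2 CPM. The 4 CD8 or NK cell markers summed to between 19.0 and 30.4 CPM in naive and 7.86 and 18.8 CPM in Tconv libraries, and to at most 27.7 CPM in TconvTreg libraries. The part of these cells in the results below was not tested.

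The ribosomal protein genes together took a larger share of the counts in naive than in Tconv cells. In HP1a WT naive libraries the share was 4.51, 3.48 and 3.94%, and in HP1a KO naive libraries 3.92, 3.70 and 3.68%. In HP1g WT naive libraries it was 3.50, 5.53 and 3.64%, and in HP1g KO naive libraries 3.27, 3.23 and 2.82%. Tconv libraries lay lower in each line and genotype, with no overlap. They held 2.46, 2.67 and 2.51% in HP1a WT, 2.84, 2.56 and 2.59% in HP1a KO, 1.97, 1.99 and 2.03% in HP1g WT, and 2.09, 1.81 and 1.74% in HP1g KO. HP1g Tconv libraries, at 1.74 to 2.09%, lay below all HP1a Tconv libraries, at 2.46 to 2.84%. TconvTreg libraries held 2.54, 2.75 and 4.38% in HP1a WT, 3.08, 2.69 and 2.61% in HP1a KO, 2.04, 1.82 and 1.99% in HP1g WT, and 2.17 and 1.43% in the HP1g KO libraries used. The library left out held 0.0598%. As shares of bulk RNA, these values cannot tell fewer cells of a type from less RNA per cell.

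**Figure D1:**
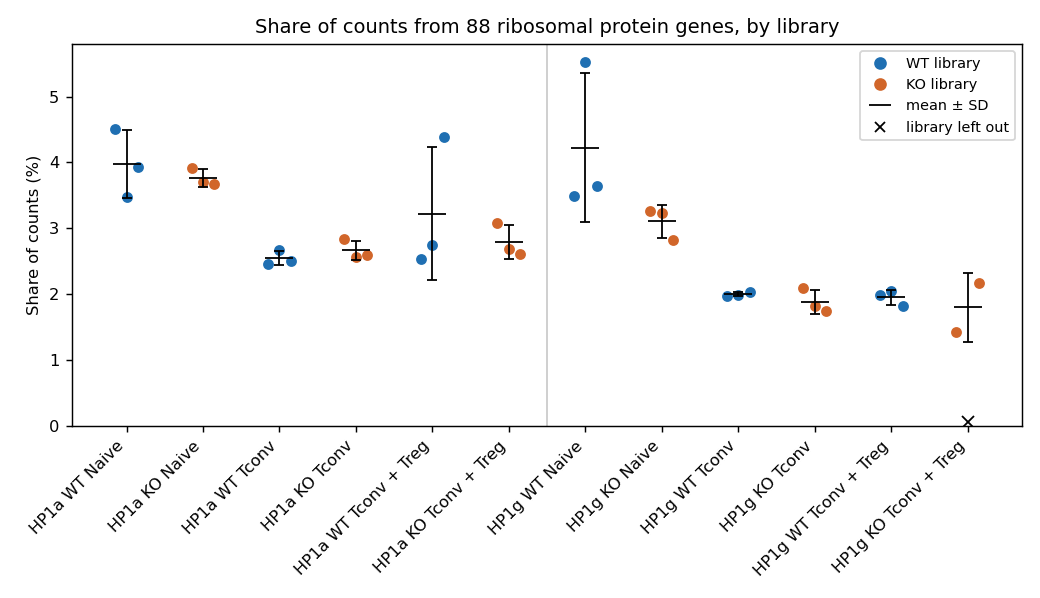
Share of all counts (%, y axis) taken by the 88 ribosomal protein genes in each library (points, blue WT and orange KO) of the 12 groups, with the mean and SD as black bars and the library left out as a cross at 0.0598%. Naive libraries of a line and genotype lie above its Tconv libraries, and replicate 2 of HP1g WT naive (5.53%) and replicate 3 of HP1a WT TconvTreg (4.38%) lie above the rest of their groups.

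Replicate 2 of HP1g WT naive and replicate 3 of HP1a WT TconvTreg stood apart from their groups in other measures too. Other protein-coding genes with a transcript under 1 kb (2150 genes) took 6.76% of the counts in the first of them, against 3.52 and 3.67% in its group, and 10.1% in the second, against 5.40 and 5.21%. Mitochondrial ribosomal protein genes took 0.514% in the first, against 0.312 and 0.317%, and 0.507% in the second, against 0.404 and 0.428%. Mitochondrial transcripts took 2.20% in the first, against 1.61 and 1.58%, and 3.84% in the second, against 1.91 and 1.74%. Medians and counts that rest on these libraries, and the members described in HP1g WT, are given with and without them.

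Levels between genes were compared per kb of the canonical transcript, as the mean of the 12 group means. Of the 88 members, 79 had a mean above 50 CPM. Rpl13 (large subunit, 1508 CPM per kb), Rps27 (small subunit, 1109) and Rps14 (small subunit, 996) were highest. Rps4l (0.493 CPM per kb), Rpl3l (0.00501) and Rpl10l (0.000378) were lowest. This order depends on the transcript chosen, as several canonical transcripts are far longer than the coding part. Over the longest transcript Rps27, Rps3a1 and Rpl13 led, and over the coding length Rpl41, Rps27 and Rpl13. Rpl10l had a count in 1 of the 35 libraries and Rpl3l in 5, and these 2 genes passed the filter on low counts in no comparison.

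Tconv were compared with naive cells to ask how the transferred, allogeneically stimulated cells differed from cells taken from unmanipulated mice. Ribosomal protein genes were mostly lower in Tconv, in both lines and genotypes. In HP1a WT 60 of the 86 members tested fell and 2 rose (edgeR's quasi-likelihood test, adjusted p under 0.05), beside 21.4% of all 16027 genes that fell and 24.3% that rose. In HP1a KO 65 of 85 fell and 2 rose, beside 17.8% and 22.9% of all genes. A single fit over all libraries of the line, by contrast, called 25 of 86 members lower and 1 higher there, beside 11.5% of all genes lower. In HP1g WT 72 of 86 fell and 1 rose, beside 13.2% and 18.3%. In HP1g KO 72 of 85 fell and 1 rose, beside 17.7% and 23.4%. In all, 60 of the 88 genes fell in each of the 4 comparisons, that is 71.4% of the 84 tested in all 4, beside 7.15% of the 14941 genes tested in all 4. There were 13 members that fell in none, of which 2 were never tested. These counts come from fits on the groups of each comparison and depend on that choice. The single fit over all libraries of a line also called fewer members lower in HP1a WT, 40 of 86 (14.5% of all genes). It called 80 of 86 lower in HP1g WT (16.4%) and 60 of 86 in HP1g KO (13.5%).

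The size of the difference was moderate. The median log2 fold change of the members tested was -0.51 in HP1a WT, -0.41 in HP1a KO, -1.09 in HP1g WT and -0.72 in HP1g KO, where the medians of all genes were -0.04, -0.01, -0.03 and 0.02. With a further threshold of an absolute log2 fold change above 1, 3 members fell in HP1a WT (10.2% of all genes), 1 in HP1a KO (7.24%), 50 in HP1g WT (8.55%) and 8 in HP1g KO (7.3%). Without replicate 2 of HP1g WT naive the median in HP1g WT was -0.73, with 75 members lower and 2 higher (17.4% of all genes lower and 22.8% higher), and 14 lower with the fold threshold (7.16%). Leaving out replicate 2 of HP1g WT Tconv left 31 calls in either direction there, leaving out replicate 3 left 37 and replicate 1 left 45, while the median lay between -1.28 and -0.73 over the 6 fits that each leave out 1 library. In HP1a WT, leaving out replicate 1 of Tconv left 39 calls in either direction. The number of members lower in each of the 6 fits that leave out 1 library was 37 in HP1a WT, 49 in HP1a KO, 30 in HP1g WT and 63 in HP1g KO. Apart from the fit without replicate 2 of HP1g WT naive, no share of all genes is given for these fits. Their counts therefore cannot tell a change in the members from a change over all genes.

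The single call upward in HP1g WT was Rps12l1, which passed the filter on low counts only through its Tconv libraries, so that its call says nothing beyond its counts. It is a processed pseudogene on chromosome 7 (55663764 to 55664162), and its reads cannot be told safely from those of Rps12. It was at 0 in the 3 HP1g WT naive libraries and at 1.11, 0.700 and 0.810 CPM in HP1g WT Tconv, at least 12.6-fold higher when set against a floor of 3 counts per naive library. It was at 0 in 14 of the 35 libraries, among them the 3 HP1a KO naive libraries, and in several groups some libraries were at 0 and others were not.

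The 3 members with the lowest mean log2 fold change were all of the small subunit. Rps29, a zinc-binding protein of the 40S head, had a mean of -1.30 over the 4 comparisons. It was at 455, 338 and 452 CPM in HP1a WT naive and at 166, 188 and 157 CPM in HP1a WT Tconv, with no overlap. Its log2 fold change was -1.28 (SE 0.13, adjusted p = 0.00013) there and -1.01 (SE 0.08, adjusted p = 8.16e-05) in HP1a KO. In HP1g KO it went from 366, 394 and 322 CPM to 146, 138 and 132 CPM (log2 fold change -1.35, SE 0.11, adjusted p = 2.73e-05). Rps20, a protein of the 40S head, was at 439, 310 and 369.5 CPM in HP1a WT naive and at 164, 197 and 161 CPM in HP1a WT Tconv. Its log2 fold changes were -1.09 in HP1a WT, -0.89 in HP1a KO, -1.73 in HP1g WT and -1.20 in HP1g KO. Rps28 followed, at -1.03, -0.79, -1.46 and -1.18. In HP1g WT the values of Rps29, Rps20 and Rps28 were -1.16, -1.41 and -1.10 without replicate 2 of naive, and the calls of Rps29, Rps20 and Rps28 in the 4 comparisons held with any 1 library left out.

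Of the large subunit, Rpl36a and Rpl12 were among the members with the lowest adjusted p. Rpl36a fell by 0.70 on the log2 scale in HP1a KO, from 139, 136 and 135 CPM to 84.2, 83.4 and 81.6 CPM (SE 0.06, adjusted p = 0.000138). Rpl12, a protein at the base of the stalk, fell by 1.42 in HP1g WT (SE 0.24, adjusted p = 0.00281). There it stood at 307, 530 and 333 CPM in naive and 160, 141 and 137 CPM in Tconv libraries. Rps3a1, a small subunit protein with many processed copies in the genome, fell by 1.34 in HP1g WT (SE 0.23, adjusted p = 0.0036). Rpl12 and Rps3a1 fell by 1.13 and 1.05 there without replicate 2 of naive.

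**Figure D2:**
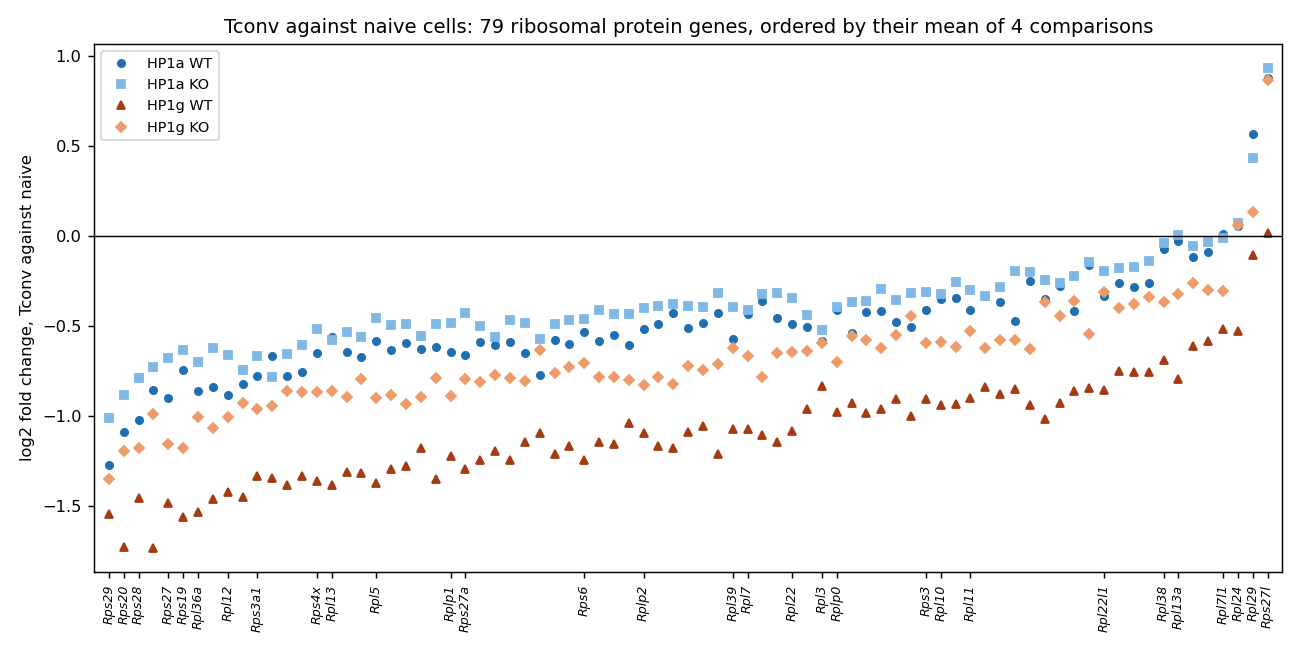
Log2 fold change of Tconv against naive cells (y axis) for the 79 ribosomal protein genes with a mean above 50 CPM (x axis, some of those described in the text labelled), ordered by their mean over HP1a WT (blue circles), HP1a KO (light blue squares), HP1g WT (dark red triangles) and HP1g KO (orange diamonds). Nearly all points lie below 0, the order from Rps29 to Rps27l is alike in the 4 comparisons, and Rps27l and Rpl29 stand at the upper end.

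Members kept a like order in the comparisons. Over the 79 genes, Pearson's r between any 2 of the 4 sets of log2 fold changes, which share no library, lay between 0.92 and 0.98, and Spearman's rho between 0.89 and 0.96. The points are genes measured in the same libraries and are not independent. The fold change had little relation to coding length, with Spearman's rho between 0.08 and 0.21.

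The stalk proteins Rplp0, Rplp1 and Rplp2, which recruit elongation factors, fell in all 4 comparisons. Rplp1 fell by 0.65 on the log2 scale in HP1a WT, 0.48 in HP1a KO, 1.22 in HP1g WT and 0.89 in HP1g KO, and Rplp0 by 0.41, 0.40, 0.98 and 0.70. Rpl5 and Rpl11, which with 5S RNA form a particle that can bind MDM2, fell too, Rpl5 by 0.58, 0.46, 1.37 and 0.90 and Rpl11 by 0.41, 0.30, 0.90 and 0.53. Rps6, the substrate of the S6 kinases, was at 1158, 860 and 983 CPM in HP1a WT naive and 657, 719 and 681 CPM in HP1a WT Tconv (log2 fold change -0.54, SE 0.12, adjusted p = 0.00691). In HP1g WT it fell by 1.24. Rps19, a gene mutated in Diamond-Blackfan anaemia, fell by 0.75, 0.64, 1.56 and 1.18. Rps27a, which is made as a fusion with ubiquitin, fell by 0.66, 0.43, 1.29 and 0.79, and Rps3, at the mRNA entry channel, by 0.41, 0.31, 0.91 and 0.59. In HP1g WT without replicate 2 of naive, the falls were 0.90 for Rplp1, 0.74 for Rplp0, 0.99 for Rpl5, 0.56 for Rpl11, 0.84 for Rps6, 1.06 for Rps19, 0.91 for Rps27a and 0.61 for Rps3.

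Some members differed little. Rpl13a, known also for a role in translational silencing after interferon gamma, had log2 fold changes of -0.03 in HP1a WT and 0.01 in HP1a KO (adjusted p = 0.893 and 0.966 by edgeR) and -0.32 in HP1g KO (adjusted p = 0.11). It was called in HP1g WT (-0.80, SE 0.26, adjusted p = 0.0491), a call lost in the 3 fits that each leave out a Tconv library, where adjusted p was at most 0.146. With replicate 2 of HP1g WT naive left out it was called at -0.44 (SE 0.07, adjusted p = 0.00421). Rpl38, known for its part in the translation of Hox mRNAs, had log2 fold changes of -0.07 in HP1a WT, -0.04 in HP1a KO and -0.69 in HP1g WT that passed no test (adjusted p = 0.697, 0.731 and 0.143), and fell in HP1g KO by 0.37 (SE 0.11, adjusted p = 0.0281). In HP1g WT the value of Rpl38 was -0.18 without replicate 2 of naive. Rpl24 had log2 fold changes of 0.05, 0.08, -0.53 and 0.06 and passed the test in none, and in HP1g WT it had -0.22 (adjusted p = 0.0505) without that library. Rpl29 rose in HP1a WT, from 189, 140 and 166 CPM to 225, 239 and 266 CPM (log2 fold change 0.57, SE 0.12, adjusted p = 0.00615), and in HP1a KO by 0.44 (SE 0.08, adjusted p = 0.00544). In HP1g WT and HP1g KO its values were -0.10 and 0.14, and neither passed the test. The direction in HP1g WT turned without replicate 2 of naive, to 0.20 (SE 0.11, adjusted p = 0.173).

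Rps27l, a paralog of Rps27 known as a target of p53, was the member that rose most clearly. It was at 38.2, 40.8 and 49.2 CPM in HP1a WT naive and 65.2, 90.8 and 78.6 CPM in HP1a WT Tconv. The log2 fold change was 0.88 there (SE 0.14, adjusted p = 0.00142), 0.93 in HP1a KO (SE 0.12, adjusted p = 0.000974) and 0.87 in HP1g KO (SE 0.18, adjusted p = 0.00472). In HP1g WT it was 0.02 (SE 0.40), with naive libraries at 43.4, 120 and 41.6 CPM and Tconv libraries at 62.99, 62.4 and 82.6 CPM. Without replicate 2 of HP1g WT naive, the library at 120 CPM, it was 0.71 (SE 0.14, adjusted p = 0.00966). Its parent Rps27 went the other way, from 974, 678 and 833 CPM to 437, 466 and 422 CPM in HP1a WT, and fell in all 4 comparisons, by 0.90, 0.68, 1.49 and 1.15, and by 1.03 in HP1g WT without that library. Rps27l thus stood at 3.92 to 7.23% of the CPM of Rps27 in naive libraries and at 13.0 to 30.1% in Tconv libraries.

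Rpl22l1 and Rpl7l1 were not called higher in any of the 4 comparisons. Rpl22l1, a paralog of Rpl22, which is needed for the development of αβ T cells, was about as high as its parent, at 82.7 to 108.4% of its CPM in naive and 89.9 to 136.7% in Tconv libraries. It was called lower in HP1g WT alone (log2 fold change -0.86, SE 0.26, adjusted p = 0.0388, and -0.48 without replicate 2 of naive), while Rpl22 fell in all 4, by 0.49, 0.34, 1.09 and 0.65. Rpl7l1, whose product takes part in the assembly of the large subunit, had log2 fold changes of 0.01, -0.01, -0.51 and -0.31 and passed the test in none (lowest adjusted p = 0.0635), beside falls of Rpl7 of 0.43, 0.41, 1.08 and 0.67. Both paralogs stood higher against their parents in Tconv than in naive cells in each line and genotype, by group means. Rpl7l1 went from 16.7 to 21.9% of the CPM of Rpl7 in HP1a WT, 15.9 to 20.8% in HP1a KO, 15.6 to 22.8% in HP1g WT and 17.2 to 22.1% in HP1g KO, and Rpl22l1 from 87.2 to 97.3, 87.2 to 96.95, 98.9 to 116 and 97.5 to 121.9% of Rpl22. Rpl39l, at 0 to 3.06 CPM, and Rps4l, at 0.0994 to 1.77 CPM, were near the limit of detection and passed the test in none of the 4 comparisons, while their parents Rpl39 and Rps4x fell in all of them, as did Rpl3. Rpl10, the parent of Rpl10l, fell in 3 of them, with -0.35 and an adjusted p of 0.0791 in HP1a WT.

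**Figure D3:**
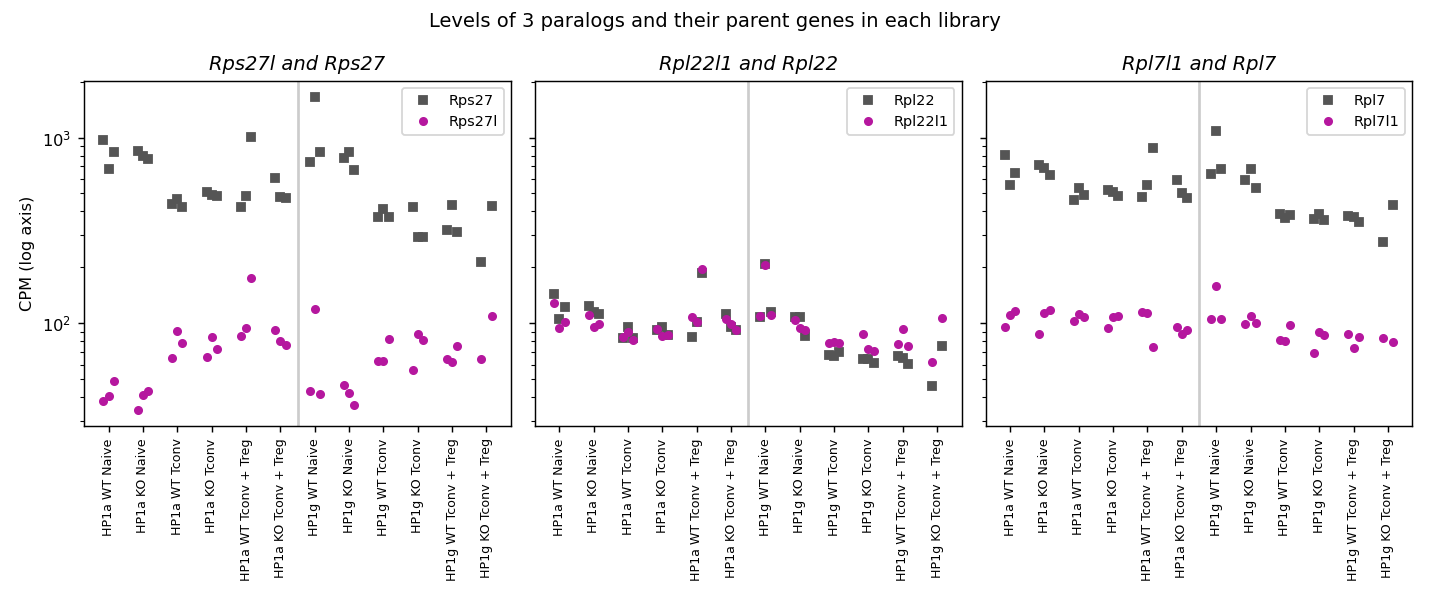
CPM (log axis) of Rps27l, Rpl22l1 and Rpl7l1 (magenta) and of their parents Rps27, Rpl22 and Rpl7 (grey) in each of the 35 libraries by group. Rps27l is at 34.2 to 120 CPM in naive and 56.1 to 90.8 CPM in Tconv libraries while Rps27 is lower in Tconv, Rpl22l1 and Rpl22 overlap, and Rpl7l1 stays below Rpl7.

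The counts of small subunit genes amounted to 0.712 to 0.747 of those of large subunit genes in the 12 naive libraries and to 0.635 to 0.661 in the 12 Tconv libraries, with no overlap. Median log2 fold changes of small and large subunit members were -0.62 and -0.48 in HP1a WT, -0.49 and -0.39 in HP1a KO, -1.25 and -1.05 in HP1g WT, and -0.79 and -0.64 in HP1g KO. TconvTreg libraries had ratios of 0.628 to 0.708, the highest being replicate 3 of HP1a WT TconvTreg.

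**Figure D4:**
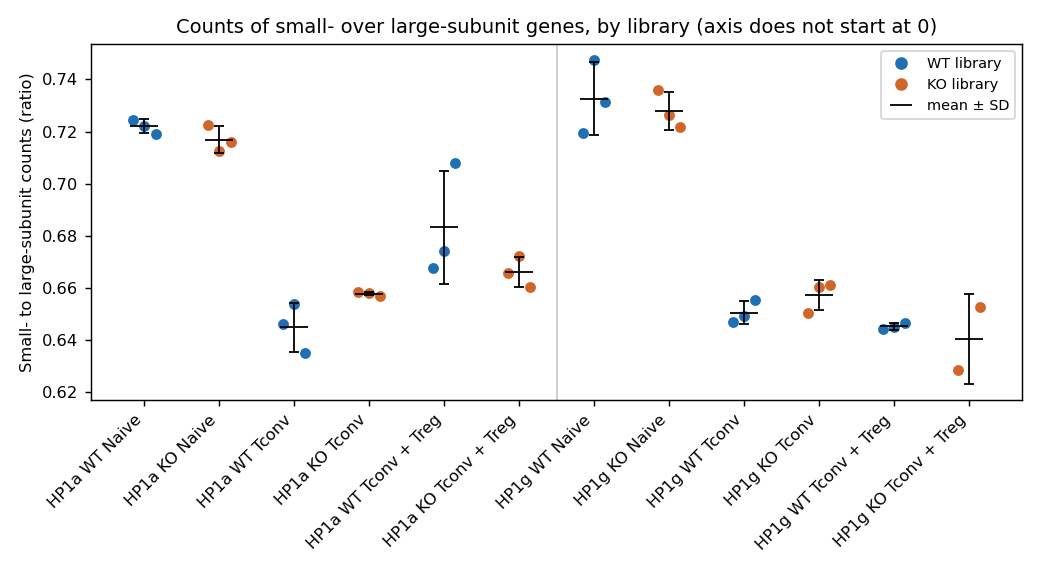
Ratio of the counts of small to large subunit genes (y axis, not from 0) in each library (points, blue WT and orange KO) by group, with the mean and SD in black. The 12 naive libraries lie between 0.712 and 0.747, and the 12 Tconv libraries between 0.635 and 0.661.

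Proteins outside the name rule and genes of related function were set beside the members in the same comparisons. Rpsa fell in HP1a KO, HP1g WT and HP1g KO, by 0.30, 0.80 and 0.44, and had -0.32 with an adjusted p of 0.0834 in HP1a WT. Rpl36al, a paralog of Rpl36a, rose in HP1a WT and HP1a KO, each time by 0.41. Rack1, a scaffold protein of the small subunit, fell in HP1g WT and HP1g KO, by 0.68 and 0.39, and had -0.05 and 0.00278 in HP1a WT and HP1a KO, where it passed no test. Fau, made as a fusion with a small subunit protein, had -0.12, -0.07, -0.67 and -0.30 and passed the test in none. Of the pseudogenes named after members 85, 77, 80 and 76 could be tested, and 17, 6, 38 and 17 fell while 0, 2, 0 and 0 rose. Of all genes tested, 21.4, 17.8, 13.2 and 17.7% fell and 24.3, 22.9, 18.3 and 23.4% rose in the same comparisons. The counts of every list here and in the next paragraph stand beside these shares. Several were near or below them, and no list was tested against them. Of 15 translation factors and other genes with TOP mRNAs, 6 fell in HP1a WT, 6 in HP1a KO, 5 in HP1g WT and 7 in HP1g KO, and 1 rose in HP1a KO. Among them Eef1a1, which brings tRNAs to the ribosome, fell by 0.51, 0.46, 0.87 and 0.67. Of 26 genes of ribosome biogenesis 13, 10, 7 and 19 fell and 2, 3, 0 and 0 rose. Of 11 genes tested for RNA polymerase I and its factors 3, 3, 0 and 5 fell and 1, 2, 0 and 0 rose, beside the shares of all genes just given.

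Mitochondrial ribosomal protein genes (78 tested) did not share the pattern of the cytosolic ones in the HP1a line. In HP1a WT 33 rose and 5 fell, and in HP1a KO 30 rose and 5 fell, with median log2 fold changes of 0.26 and 0.17. In HP1g WT 0 rose and 9 fell, with a median of -0.47, and in HP1g KO 11 rose and 11 fell, with a median of -0.05. Of the tested transcripts encoded in the mitochondrial genome 10 of 19, 5 of 17, 5 of 18 and 5 of 18 fell, beside 21.4, 17.8, 13.2 and 17.7% of all genes. The other short genes had medians of 0.39, 0.35, -0.29 and 0.18, with the values above 0 in 3 of the 4 comparisons. Of 12 regulators of ribosome genes and translation 4, 3, 3 and 3 fell and 2, 2, 1 and 2 rose. Among them Trp53 fell in all 4 comparisons, by 0.59, 0.48, 0.97 and 0.80, and Myc, an activator of ribosome genes, in HP1g WT (-0.67) and HP1g KO (-1.07). With replicate 2 of naive left out, HP1g WT had 11 translation factors, 14 biogenesis genes, 2 polymerase I genes, 15 mitochondrial ribosomal protein genes and 3 regulators that fell, and 0, 0, 1, 4 and 4 that rose. Of all genes in that fit 17.4% fell and 22.8% rose. The median of the mitochondrial ribosomal protein genes was then -0.10 and that of the other short genes 0.17. The single genes of this and the preceding paragraph are given for HP1g WT with all libraries. Markers of dividing cells summed to between 5.66 and 13.0 CPM in naive and 144 and 1033 CPM in Tconv libraries.

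The difference of the activation effect between the lines was examined after the values had been seen. The median member log2 fold change for HP1g against HP1a was -0.58 in WT and -0.32 in KO cells. No member passed the test in either (edgeR, beside 0.0117% and 1.1% of all genes), with 21 and 37 of 86 members at an unadjusted p under 0.05 (24.4 and 43.0% of them, beside 19.6 and 16.1% of all genes), and DESeq2 called 0 and 2. The lowest adjusted p of a member above 50 CPM in KO cells was that of Rps19 (-0.56, SE 0.16, adjusted p = 0.1002 by edgeR and 0.0305 by DESeq2). The other DESeq2 call in KO cells was Rps12l1, which was at 0 in HP1a KO naive, so its call says nothing beyond its counts. Without replicate 2 of HP1g WT naive the median in WT cells was -0.23. The labels number the libraries of each line in series of their own and do not say whether these are batches, so line and library set cannot be told apart.

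Treg were given to ask what they change in Tconv. No member passed the test in HP1a WT (7.54% of all genes called), HP1a KO (0.756%), HP1g WT (0.0126%) or HP1g KO (0.0%), by edgeR, where 6, 4, 11 and 3 members had an unadjusted p under 0.05 (6.98, 4.71, 13.1 and 3.53% of them, beside 22.5, 15.8, 6.89 and 7.62% of all genes). DESeq2 called 1 member in HP1a WT and 0 in the others. In HP1a WT 78 of 86 members had a log2 fold change above 0, with a median of 0.40 beside 0.03 for all genes. This rested on replicate 3 of TconvTreg. Without the library the median was 0.03, 48 of 86 were above 0, and 4 members were called, 3 higher, among them Rpl31 and Rpl41 (0.37 and 0.38), and Rpl29 lower (-0.59), beside 16.5% of all genes called in that fit. Other short genes had a median of 0.40 in HP1a WT with all libraries. In the other comparisons the medians were 0.07 in HP1a KO, -0.08 in HP1g WT and -0.07 in HP1g KO, with typical standard errors (medians over 79 members) of 0.10, 0.08 and 0.22. For HP1g KO the value was -0.47 without replicate 1 and 0.18 without replicate 2 of TconvTreg, and -0.62 when the library left out was put back.

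KO cells were compared with WT cells to ask what the loss of each HP1 protein changes. No member passed the test in the HP1a line in naive cells (0.0% of all genes called), Tconv (0.122%) or TconvTreg (0.123%), nor in the HP1g line in naive cells (0.00669%), Tconv (0.0437%) or TconvTreg (0.0%). By edgeR 1, 1, 0, 6, 2 and 3 members had an unadjusted p under 0.05 in these 6 comparisons, beside 1.87, 8.53, 12.1, 5.78, 8.42 and 11.8% of all genes, and DESeq2 called 1 in HP1g naive cells and 1 in HP1g TconvTreg. The medians were -0.06, 0.05 and -0.32 in the HP1a line and -0.48, -0.10 and -0.13 in the HP1g line, with median standard errors of 0.13, 0.08, 0.28, 0.24, 0.10 and 0.21 over the 79 genes.

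The medians of -0.32 and -0.48 moved when the libraries that stood apart were left out. In HP1a TconvTreg the value without replicate 3 of WT was 0.08. In HP1g naive cells 84 of 86 members were below 0, and Rpl13 was at 1394, 1558 and 1186 CPM in KO and 1639, 3566 and 1665 CPM in WT libraries (log2 fold change -0.70, SE 0.29, adjusted p = 0.63). Without replicate 2 of WT the median was -0.16, 84 of 86 were below 0, and Rps12l1, at 0 in the WT libraries, alone was called. Other short genes had medians of -0.37 and -0.44 in these comparisons with all libraries. In HP1g TconvTreg the median was -0.52 without replicate 1 and 0.11 without replicate 2 of KO, and -0.66 with the library left out put back.

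**Figure D5:**
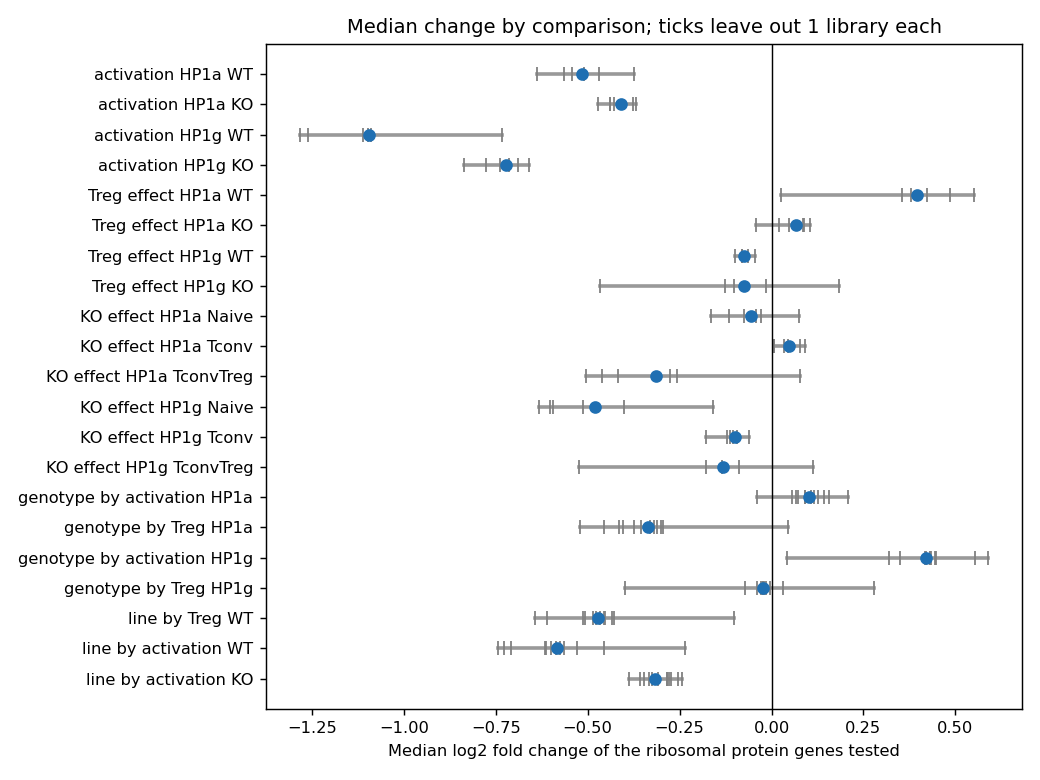
Median log2 fold change of the ribosomal protein genes tested (x axis) in the 21 comparisons (blue points), with grey ticks for the values when 1 library is left out and a grey line over their range. The Tconv against naive comparisons (activation) stay below 0 throughout, from -1.28 to -0.37, and the ranges of 8 of the others cross 0.

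The members that DESeq2 called in the KO comparisons had low counts. Rps12l1 was at 1.07, 2.02 and 1.31 CPM in HP1g KO naive and at 0 in the 3 WT libraries, at least 21.3-fold higher against the floor of 3 counts. Its adjusted p was 0.0974 in edgeR and 1.18e-07 in DESeq2. It passed edgeR's filter on low counts only through the KO libraries, so neither p-value says anything beyond its counts. Rpl39l was at 1.33 and 1.03 CPM in the HP1g KO TconvTreg libraries and at 0.0705, 0.184 and 0.0929 CPM in WT. Its log2 fold change was 3.34 (SE 0.58), with adjusted p-values of 0.184 in edgeR and 0.000833 in DESeq2. The WT values are near the floor of 3 counts, so the fold rests on few reads.

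Interactions were fitted to ask whether an effect differed between genotypes or lines. No member passed the test for genotype and activation in the HP1a (0.00587% of all genes called) or HP1g line (0.0235%), for genotype and Treg in the HP1a (0.145%) or HP1g line (0.0%), or for line and Treg in WT cells (1.76%). In the same order, 1, 2, 0, 0 and 7 members had an unadjusted p under 0.05 in edgeR, beside 4.89, 7.89, 9.74, 3.74 and 15.7% of all genes. DESeq2 called Rps12l1 for genotype and activation in the HP1g line and no member in the others. Rps12l1 was at 0 in HP1g WT naive, so its call says nothing beyond its counts. Medians were 0.10, 0.42, -0.34, -0.02 and -0.47. Without replicate 2 of HP1g WT naive the median for genotype and activation in the HP1g line was 0.04. Without replicate 3 of HP1a WT TconvTreg that for genotype and Treg in the HP1a line was 0.04 and that for line and Treg -0.10. For genotype and Treg in the HP1g line it was -0.40 without replicate 1 and 0.28 without replicate 2 of KO TconvTreg.

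Across all 35 libraries most members varied together. Leaving aside members under 5 CPM on average, 80 genes remained, and 69 of them had a Pearson's r above 0.9 between their log2 CPM and the median of the others, and the median r was 0.97. The libraries of a group share their cell state, so r describes these libraries and carries no test. The lowest values were those of Rps27l (-0.09), Rpl29 (0.44) and Rpl7l1 (0.56).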

How the data were processed

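Full-length cDNA libraries (SMART-Seq, a kit that does not mark strand) were read in pairs. According to the study's methods and the submitters' processing notes, reads were trimmed with Trim Galore, aligned with STAR to GRCm39 and quantified with Salmon through nf-core/rnaseq, and the resulting estimated counts per gene were deposited by the authors without normalization. Estimated counts were rounded to whole numbers. Reads that paralogs or pseudogenes share are split by the quantification, which limits the values of near-identical copies.

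Genes passing filterByExpr were fitted with edgeR 4.0.16 (R 4.3.3), TMM scaling, and the robust quasi-likelihood test, on the groups of each comparison, with Benjamini-Hochberg adjustment over all genes tested. A call is an adjusted p under 0.05. The SE is the absolute log2 fold change divided by the square root of F. DESeq2 1.42.0, total-count scaling, no filter, 1 fit over all libraries, a replicate block, the left-out library put back and each library left out in turn were alternatives. The edgeR fit was tested on simulated counts. Depth was 37029519 to 63042245 counts per library. Nothing in the labels says that libraries of a group are separate animals, so p-values measure the spread between these samples. Replicate 3 of HP1g KO TconvTreg was left out, as the authors did on quality measures.

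Members and lists were chosen with earlier results of these data known. The named genes are paralogs with their parents, members with set roles, the 3 members of lowest adjusted p per direction and comparison with a mean of at least 5 CPM, the 3 highest and 3 lowest per length, the 3 with the lowest correlation with the others, and genes describing a list. Rpl24, Rps12l1, Rpl31 and Rpl41 were chosen after their values were seen. Some genes are not reported here by name. Same-numbered libraries deviated together (every correlation above 0.1 over 3 pairs) in the KO comparisons of HP1a naive cells (0.261 to 0.620) and HP1g Tconv (0.113 to 0.414), and the replicate block gave 0 members called in both, as without it. Comparisons with only 2 pairs also had every correlation above 0.1. They were KO in HP1g TconvTreg (0.189 to 0.362) and the Treg effect in HP1g KO (0.104 to 0.185).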

Additional observations from a re-analysis of the deposited data

How the results depend on the processing

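Of 377 values under another setting 358 stayed within the limits of the reported ones, as did 342 of 365 with 1 library left out, and the cause of the others was not tested. A count of calls was within them when unchanged, also at 0, or changed by at most 1.5 times. Medians and shares were within them when they moved by less than the SD between replicate libraries. The levels per kb had no such limit and were counted as outside. These limits are wide where a group held a library that stood apart, so the totals say little on how firm single results are. In Tconv against naive cells, the added fold threshold left 3 members in HP1a WT, 1 in HP1a KO and 8 in HP1g KO. One fit over all libraries called 26 in HP1a KO (29.2% of all genes called), where total-count scaling gave a median of -0.49. In HP1a WT that scaling moved the median of all genes from -0.04 to -0.18 and that of members to -0.65. The replicate block gave 51, 66, 72 and 74 calls in HP1a WT, HP1a KO, HP1g WT and HP1g KO, and changed no count of calls by over 1.5 times. Shares of all genes called under the block are not given, so its counts cannot be set against them. For the Treg effect in HP1a WT DESeq2 called 1. The fit over all libraries called 8, all higher, or 9.30% of members. In that fit 17.1% of all genes were called, and 8.75% of all genes were called higher. For KO in HP1g naive cells DESeq2 and the fit without a filter called 1 each. In HP1g TconvTreg DESeq2, the fit over all libraries (1.94% of all genes called) and that without a filter called 1 each. DESeq2 called 1 for genotype and activation in HP1g (Rps12l1) and 2 for line and activation in KO (Rps19 and Rps12l1). With the left-out library put back, medians were -0.62 for the Treg effect in HP1g KO, -0.66 for KO in HP1g TconvTreg and -0.55 for genotype and Treg in HP1g. The median level per kb of members was 158.9 CPM over the longest transcript and 631.7 CPM over the coding length.

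With 1 library left out, calls in Tconv against naive ranged from 39 to 70 in HP1a WT and from 31 to 77 in HP1g WT, with medians of -0.47 to -0.37 in HP1a KO and -1.28 to -0.73 in HP1g WT. The ranges of calls in this paragraph are given without the share of all genes called in each fit. For the Treg effect they were 0 to 4 calls and medians of 0.0265 to 0.55 in HP1a WT, and medians of -0.47 to 0.18 in HP1g KO. For KO, medians were -0.51 to 0.0774 in HP1a TconvTreg and -0.52 to 0.11 in HP1g TconvTreg, and calls 0 to 1 in HP1g naive cells. For genotype and activation, medians were -0.0386 to 0.21 in HP1a and 0.0413 to 0.59 in HP1g, with 0 to 1 calls in HP1g. For genotype and Treg they were -0.52 to 0.0441 in HP1a and -0.40 to 0.28 in HP1g. For line and Treg in WT they were -0.64 to -0.10. For line and activation they were -0.74 to -0.23 with 0 to 1 calls in WT, and 0 to 3 calls in KO. Members near the floor of 3 counts per library, such as Rps12l1 and Rpl39l, are limited by depth.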
